A study of Mus musculus with 8 samples.

Results

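The Ms4a genes lie side by side on mouse chromosome 19 and encode small proteins that cross the plasma membrane several times. The 7 members described here are those of macrophages and T cells, taken as a listed family: Ms4a4a, Ms4a4b, Ms4a4c, Ms4a6b, Ms4a6c, Ms4a6d and Ms4a7. A probe set was assigned by its gene symbol, and 6 of the 7 members were measured among 19505 genes in all, each by 1 probe set. Ms4a4a was not analysed here.

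The comparison asks how oral hBD-2 affects the colon in acute graft-versus-host disease, in which donor T cells attack the tissues of a transplant recipient. Both groups were wild-type BALB/c mice that had been lethally irradiated and transplanted on day 0 with bone marrow cells plus T cells of the C57BL/6 strain. Of these, 4 received hBD-2 (human beta-defensin 2, an antimicrobial peptide of epithelia) at 1.2 mg/kg by mouth from day 0 to day 7, and 4 received PBS over the same days. Whole colon was taken on day 7, with 1 array per mouse, and every mouse carried the transplant, so that no array shows a colon without it. Donor and recipient differ in strain, and whether a transcript came from donor or recipient cells, or whether strain differences in sequence affect a probe set, was not tested.

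Proteins of the Ms4a family act mostly as partners of receptors at the cell surface. The best known are Ms4a1, the B cell protein CD20, and Ms4a2, the beta chain of the high-affinity IgE receptor of mast cells. Ms4a4b is a T cell protein that associates with the co-stimulatory receptor GITR, and Ms4a6b is a related protein also expressed in T cells. Ms4a4a and Ms4a7 are macrophage proteins, Ms4a6c and Ms4a6d are expressed in monocytes and macrophages, and Ms4a6d forms a complex with the macrophage receptor Vsig4. The members arose by gene duplication, and the share of signal that a probe set takes from a related member was not tested.

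In 2 pairs of members the duplications can be read in the promoters. The 300 bases shown for 2 pairs of members, from 250 before to 50 after the gene start, come from RefSeq with the build GRCm38.p6, and 6 of the 7 members had an entry. Ms4a6d is named only, and the entries of Ms4a4a and Ms4a7 are not shown. Capitals mark 3 motifs searched on both strands: GAAANNGAA, a core bound by interferon regulatory factors, GAGGAA, the core bound by PU.1 in myeloid and B cells, and TGTGGT, the core bound by RUNX factors, which reads ACCACA on the other strand. The marked motifs do not overlap one another. These motifs occurred in 8.56%, 28.3% and 16.8% of the 32851 promoters of the same length.
Ms4a4b: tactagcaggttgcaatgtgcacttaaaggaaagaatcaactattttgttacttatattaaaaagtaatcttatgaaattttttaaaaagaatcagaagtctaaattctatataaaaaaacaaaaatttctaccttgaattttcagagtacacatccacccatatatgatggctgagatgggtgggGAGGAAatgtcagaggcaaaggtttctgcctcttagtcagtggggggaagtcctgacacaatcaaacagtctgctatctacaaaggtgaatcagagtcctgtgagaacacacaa
Ms4a4c: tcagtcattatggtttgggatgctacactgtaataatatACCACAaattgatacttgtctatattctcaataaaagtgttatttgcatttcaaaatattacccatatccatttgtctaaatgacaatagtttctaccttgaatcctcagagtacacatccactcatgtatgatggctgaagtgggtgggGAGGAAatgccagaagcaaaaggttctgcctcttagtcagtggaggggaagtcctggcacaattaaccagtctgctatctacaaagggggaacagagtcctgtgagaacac
Ms4a6b: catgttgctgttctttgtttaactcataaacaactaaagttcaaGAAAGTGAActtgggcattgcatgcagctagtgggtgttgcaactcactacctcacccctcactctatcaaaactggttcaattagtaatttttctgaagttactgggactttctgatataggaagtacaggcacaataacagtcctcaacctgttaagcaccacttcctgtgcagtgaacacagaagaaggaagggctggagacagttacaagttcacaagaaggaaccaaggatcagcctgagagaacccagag
Ms4a6c: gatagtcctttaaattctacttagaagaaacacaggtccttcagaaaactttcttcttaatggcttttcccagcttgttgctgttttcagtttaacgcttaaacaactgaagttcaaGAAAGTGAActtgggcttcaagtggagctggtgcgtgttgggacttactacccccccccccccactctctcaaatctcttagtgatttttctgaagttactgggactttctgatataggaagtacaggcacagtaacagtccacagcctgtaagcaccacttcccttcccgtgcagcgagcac

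All 4 are on the plus strand of chromosome 19. Ms4a4b is shown over chr19:11443308-11443607, Ms4a4c over chr19:11407411-11407710, Ms4a6b over chr19:11518309-11518608 and Ms4a6c over chr19:11469118-11469417. The Ms4a4b and Ms4a4c promoters shared 88.5% of bases over a local alignment of 183 columns, which includes the GAGGAA at -64 in Ms4a4b and at -61 in Ms4a4c, counted from the gene start. The TGTGGT core at -211 was found in Ms4a4c and not in Ms4a4b. The Ms4a6b and Ms4a6c promoters shared 81% of bases over 232 columns, with a longest identical run of 48 bases, and both carry GAAAGTGAA, at -206 in Ms4a6b and at -133 in Ms4a6c. In the other pairs of promoters, which include all those with Ms4a4a or Ms4a7, the longest identical run was 7 to 9 bases. A match to a motif describes the letters only.

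Before the members' values, 2 arrays need naming. The arrays hBD-2 1 and hBD-2 3 lay at 25.2 and 25.4 on the first principal component (34.6% of the variance), against -14.9 to -2.45 for the other 6. Hoxb13, a homeobox gene of the posterior gut, stood in the hBD-2 mice 1 to 4 at 9.06, 5.11, 9.32 and 5.22 log2 units, and in the PBS mice 1 to 4 at 4.73, 5.14, 7.22 and 6.76 log2 units. Over 9 posterior colon genes the mean level per array spanned 5.87 to 7.75 in hBD-2 mice and 5.82 to 6.26 in PBS mice. With this pair of arrays left out, the members' differences were -0.76 for Ms4a6b (SE 0.11), -0.58 for Ms4a4c (SE 0.16), -0.49 for Ms4a6d (SE 0.18) and -0.38 for Ms4a6c (SE 0.16), as hBD-2 minus PBS on the log2 scale, and those of Ms4a4b and Ms4a7 stand with their results.

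All 6 measured members were lower on average in the hBD-2 colons. The differences, hBD-2 minus PBS, ran from -0.72 for Ms4a6d to -0.49 for Ms4a6c on the log2 scale, with a median of -0.64, against a median of 0.012 over all genes. At an unadjusted p of 0.05 (limma), 5 of the 6 were lower, where 5.98% of all genes were. In 4 of the 6 (Ms4a4c, Ms4a6b, Ms4a6d and Ms4a7) no hBD-2 mouse reached any PBS mouse, where 3.60% of all genes were lower without overlap. None passed an adjusted p of 0.05 in limma's test over all genes, which 0.0410% of genes passed as lower. With an intensity trend and a robust prior in the same test, Ms4a6b (adjusted p = 0.0132), Ms4a7 (adjusted p = 0.0456) and Ms4a4c (adjusted p = 0.0499) passed. In that setting 91 of the 19505 genes passed, 85 of them lower. In whole tissue, fewer cells of a type and less RNA per cell cannot be told apart.

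**Figure D1:**
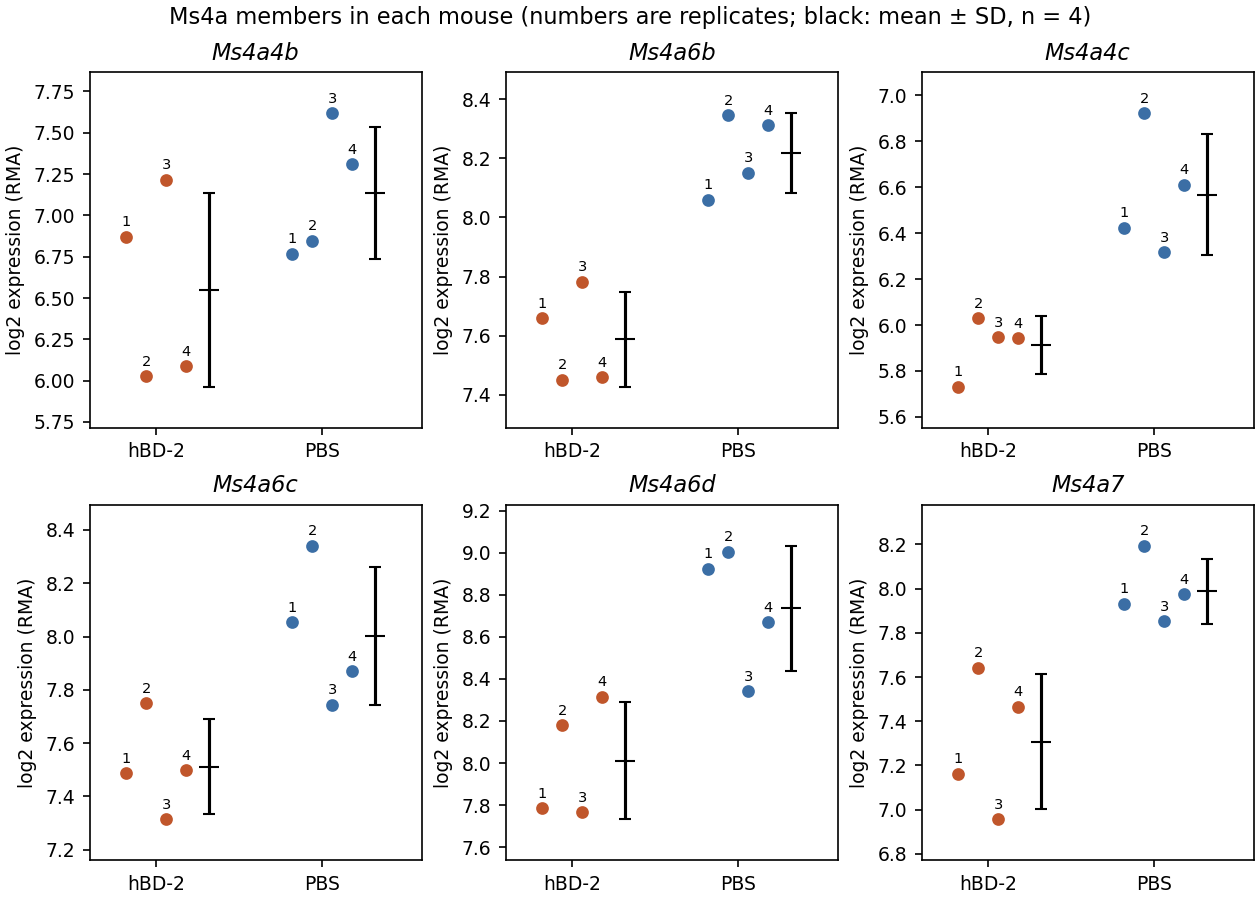
Log2 expression (vertical axes) of the 6 measured Ms4a members in each mouse, with hBD-2 mice left of PBS mice; points are single mice, with each group's mean and SD drawn beside them. Ms4a4c, Ms4a6b, Ms4a6d and Ms4a7 show no overlap between the groups, while Ms4a4b spans 6.03 to 7.22 in hBD-2 mice and 6.77 to 7.62 in PBS mice.

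The T cell members come first. Ms4a6b, the related protein of T cells, had 7.66, 7.45, 7.78 and 7.46 log2 units in hBD-2 mice 1 to 4, against 8.06, 8.35, 8.15 and 8.31 in PBS mice 1 to 4. Every hBD-2 mouse was below every PBS mouse. The means were 7.59 ± 0.16 in hBD-2 mice and 8.22 ± 0.13 in PBS mice (SD, n = 4 each). The difference was -0.63 (SE 0.10, 95% interval -0.86 to -0.41), or 1.55-fold lower, with an adjusted p of 0.0634 in limma. Ms4a6b had the lowest p of the members, and stood 26th by p among all genes that were lower.

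Ms4a4b, which restrains T cell proliferation when overexpressed in mice, was the member with the widest spread. It had 6.87, 6.03, 7.22 and 6.09 log2 units in hBD-2 mice 1 to 4, and 6.77, 6.85, 7.62 and 7.31 in PBS mice 1 to 4. The hBD-2 mice 2 and 4 lay below all PBS mice, while hBD-2 1 and hBD-2 3 lay within the PBS range. The means were 6.55 ± 0.59 in hBD-2 mice and 7.14 ± 0.40 in PBS mice (SD, n = 4 each), and the difference was -0.59 (SE 0.28, 95% interval -1.21 to 0.037, adjusted p = 0.447 in limma). Ms4a4b was thus the 1 member whose interval included 0. With the pair that stood apart left out, the difference was -1.08 (SE 0.22, adjusted p = 0.154), more than 1.5 times as large. In both groups the mice with the higher Hoxb13 also had the higher Ms4a4b: hBD-2 1 and hBD-2 3 among hBD-2 mice, PBS 3 and PBS 4 among PBS mice. This was seen after the values were known, and the part of colon position in the Ms4a4b values was not tested.

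Ms4a4c is the closest relative of Ms4a4b by promoter and is expressed in monocytes and lymphocytes. It had 5.73, 6.03, 5.95 and 5.94 log2 units in hBD-2 mice 1 to 4, against 6.42, 6.92, 6.32 and 6.61 in PBS mice 1 to 4. The groups did not overlap and the hBD-2 mice lay close together. The means were 5.91 ± 0.13 in hBD-2 mice and 6.57 ± 0.27 in PBS mice (SD, n = 4 each). The difference was -0.66 (SE 0.13, 95% interval -0.94 to -0.37), or 1.58-fold lower, with an adjusted p of 0.104 in limma.

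The macrophage members followed. Ms4a7, a marker of tissue macrophages, had 7.16, 7.64, 6.96 and 7.47 log2 units in hBD-2 mice 1 to 4, against 7.93, 8.19, 7.85 and 7.97 in PBS mice 1 to 4. The groups did not overlap, and hBD-2 1 and hBD-2 3 were the lowest of all 8 mice. The means were 7.31 ± 0.31 in hBD-2 mice and 7.99 ± 0.15 in PBS mice (SD, n = 4 each), a difference of -0.68 (SE 0.14, 95% interval -1.001 to -0.36), or 1.604-fold lower (adjusted p = 0.128 in limma). When the arrays that stood apart were omitted it was -0.43 (SE 0.12, adjusted p = 0.207), smaller by more than 1.5 times.

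Ms4a6d, the partner of Vsig4, had the largest mean difference of the 6. It stood at 7.79, 8.18, 7.77 and 8.32 log2 units in hBD-2 mice 1 to 4, against 8.92, 9.01, 8.34 and 8.67 in PBS mice 1 to 4. The groups were apart by 0.026, between hBD-2 4 and PBS 3. The means were 8.01 ± 0.28 in hBD-2 mice and 8.74 ± 0.30 in PBS mice (SD, n = 4 each), a difference of -0.72 (SE 0.17, 95% interval -1.10 to -0.35), or 1.65-fold lower (adjusted p = 0.156 in limma).

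Ms4a6c, of monocytes and macrophages, had the smallest mean difference. It had 7.49, 7.75, 7.31 and 7.50 log2 units in hBD-2 mice 1 to 4, against 8.05, 8.34, 7.74 and 7.87 in PBS mice 1 to 4. The groups overlapped by 0.0045, since hBD-2 2 lay just above PBS 3. The means were 7.51 ± 0.18 in hBD-2 mice and 8.00 ± 0.26 in PBS mice (SD, n = 4 each), a difference of -0.49 (SE 0.14, 95% interval -0.79 to -0.19), or 1.40-fold lower (adjusted p = 0.218 in limma).

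The two-sided exact permutation test over the 8 mice gave p = 0.0286 for Ms4a4c, Ms4a6b, Ms4a6d and Ms4a7, the smallest that 35 ways of dividing the mice allow. Groups without overlap always give this p, so for these members it repeats the absence of overlap. Among the 19505 genes, 703 were lower and 547 higher without overlap. Adjusted over all genes, the exact test gave 0.446 for these members. The same exact test gave p = 0.0571 for Ms4a6c and p = 0.2 for Ms4a4b. Leaving out any 1 array kept all 6 differences below 0. The intervals of the 6 differences overlapped, and no test of 1 member's difference against another's was made.

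**Figure D2:**
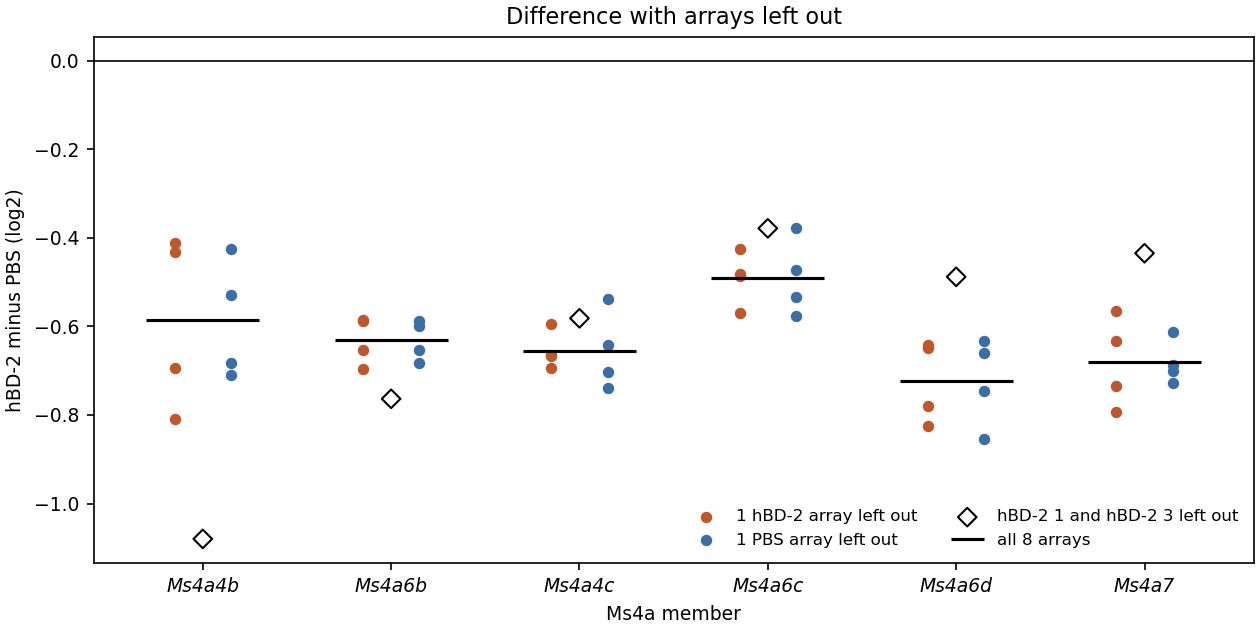
Difference between groups, hBD-2 minus PBS, in log2 units (vertical axis) for each measured Ms4a member (horizontal axis). Lines are the values with all 8 arrays, points those with 1 array left out, and diamonds those with the arrays that stood apart, hBD-2 1 and hBD-2 3, left out. All values lie below 0, and leaving out that pair moves Ms4a4b to -1.08 and Ms4a7 to -0.43.

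Within each group, the members ordered the mice differently. Set against the mean of its own group, Ms4a4b deviated in the hBD-2 mice 1 to 4 by 0.32, -0.52, 0.67 and -0.46 log2 units, while Ms4a7 deviated by -0.14, 0.33, -0.35 and 0.16. The hBD-2 mice that were high for Ms4a4b were thus low for Ms4a7. Over the 8 arrays, Ms4a4c, Ms4a6c, Ms4a6d and Ms4a7 correlated with one another at Pearson r of 0.89 to 0.93 (6 pairs), and at 0.58 to 0.79 after each group's mean was taken out. Ms4a4b correlated with those 4 at r of 0.019 to 0.31, and at -0.93 to -0.44 with group means out. These are descriptions over 8 arrays that share the group difference and the position of hBD-2 1 and hBD-2 3, and carry no p. Ms4a6b and Ms4a6c did not order the hBD-2 mice alike: hBD-2 2 was the lowest for Ms4a6b and the highest for Ms4a6c.

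**Figure D3:**
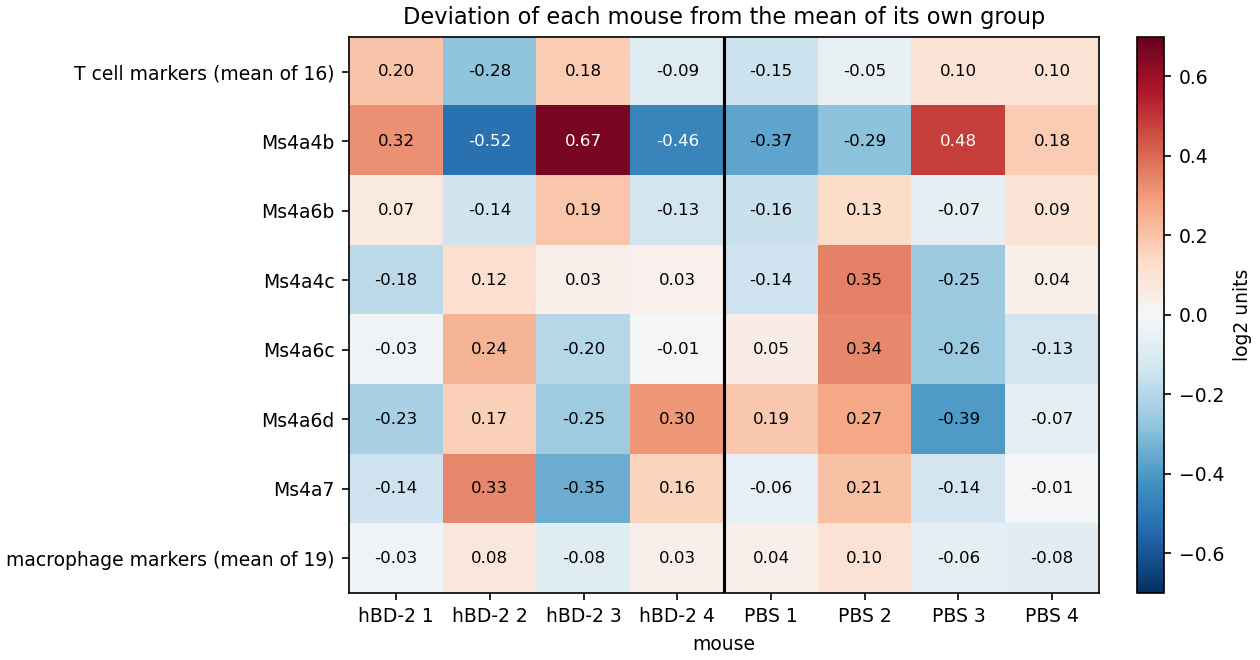
Deviation of each mouse from the mean of its own group, in log2 units (colour and printed value), for the 6 measured Ms4a members and for the means of 16 T cell and 19 macrophage markers; columns are mice, with hBD-2 mice left of PBS mice. Ms4a4b is high in hBD-2 1 and hBD-2 3 (0.32 and 0.67), where Ms4a7 is low (-0.14 and -0.35).

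Marker genes of macrophages and monocytes were also lower in part. Of 19 measured macrophage markers, 10 were lower and 1 higher at an unadjusted p of 0.05, with a median difference of -0.29. By sign alone 15 were lower and 4 higher, with differences from -0.73 to 0.24. Their mean level per array was 6.92 to 7.09 log2 units in hBD-2 mice against 7.23 to 7.41 in PBS mice. Those of lowest p were Mrc1, the mannose receptor (-0.72, SE 0.11), Itgax, an integrin chain of dendritic cells and macrophages (-0.73, SE 0.13), and C1qa, a chain of complement C1q (-0.66, SE 0.12). The defining markers Adgre1, an adhesion receptor of mature macrophages (-0.57, SE 0.21), and Csf1r, the receptor for macrophage growth factor (-0.42, SE 0.14), were also lower. With the pair that stood apart left out, Adgre1 differed by -0.25 (SE 0.20) and Csf1r by -0.35 (SE 0.18), neither at an unadjusted p of 0.05. Of 14 inflammatory monocyte markers, 5 were lower and 0 higher (median -0.26), with mean levels of 7.87 to 8.00 in hBD-2 mice and 8.15 to 8.31 in PBS mice. Ccr2, the chemokine receptor that brings monocytes into tissue, differed by -0.26 (SE 0.21) and Ly6c2 by -0.10 (SE 0.12). With 1 array left out Ccr2 ranged from -0.45 (without hBD-2 1) to -0.10 (without hBD-2 2), and Ly6c2 from -0.16 (without hBD-2 3) to -0.0069 (without hBD-2 4). With the pair that stood apart left out, Ccr2 differed by -0.65 (SE 0.15) and Ly6c2 by -0.28 (SE 0.11). No gene of these marker lists passed an adjusted p of 0.05 in limma's main setting. With the intensity trend and robust prior, Mrc1 (adjusted p = 0.00436), C1qa (0.0122) and Itgax (0.0188) were among the 91 genes that passed, as 3 of the members were. With 1 array left out at a time, limma's adjusted p was 0.0247 to 0.282 for Itgax and 0.0497 to 0.252 for Mrc1. With the pair that stood apart left out it was 0.185 for Itgax and 0.163 for Mrc1. Cd68 was not analysed here.

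T cell markers differed less uniformly. Of 16 measured, 4 were lower and 0 higher at an unadjusted p of 0.05 (median -0.19), and their mean level was 7.27, 6.78, 7.24 and 6.97 log2 units in hBD-2 mice 1 to 4, against 7.12 to 7.37 in PBS mice. The arrays that stood apart, hBD-2 1 and hBD-2 3, lay within the PBS range, and hBD-2 2 and hBD-2 4 lay below every PBS mouse. Il7r, the interleukin-7 receptor (-0.63, SE 0.089), and Cd4, the co-receptor of helper T cells (-0.61, SE 0.11), had the lowest p. Both were among the 91 genes that passed with the intensity trend and robust prior (adjusted p = 0.00854 for Il7r and 0.0160 for Cd4 in limma). Cd3e of the T cell receptor complex differed by -0.16 (SE 0.17) with all arrays, by -0.43 (SE 0.15) with the pair that stood apart left out, and by -0.030 without hBD-2 2. Cd8a differed by -0.048 (SE 0.20) with all arrays, by -0.38 (SE 0.18) with that pair left out, and by 0.093 without hBD-2 2, so that its direction depended on which arrays were kept. Of 9 regulatory T cell markers, 5 were lower and 0 higher (median -0.23), among them Ctla4 (-0.63, SE 0.13). The defining marker Foxp3 was not analysed here. The deviations of the T cell marker mean in the hBD-2 mice 1 to 4 were 0.20, -0.28, 0.18 and -0.092, of the same sign in each mouse as those of Ms4a4b. They also shared their sign with Ms4a4b in the 4 PBS mice. The part of cell number in the members' differences was not tested.

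Markers of other cells were counted at the same threshold. NK cell markers had 0 lower and 0 higher of 9 with all arrays, a count that depended on which arrays were kept. Nkg7 differed by -0.31 (SE 0.18), Klrd1 by -0.27 (SE 0.18) and Klrb1c by -0.17 (SE 0.078). Once the pair that stood apart was dropped, Nkg7 was at -0.61 (SE 0.16), Klrd1 at -0.58 (SE 0.15) and Klrb1c at -0.25 (SE 0.095). Each was then lower at an unadjusted p of 0.05 in limma, while Ncr1 was at 0.11 (SE 0.12). B cell markers had 0 lower and 1 higher of 9, mast cell markers 1 lower and 2 higher of 10, and neutrophil markers 4 lower and 2 higher of 10. Of 18 type I interferon genes, 0 were lower and 0 higher (median -0.00046), and the range of their mean levels in hBD-2 mice, 8.75 to 8.99, lay inside that of the PBS mice, 8.70 to 9.18. Isg15, an interferon-induced ubiquitin-like protein, differed by 0.095, and by -0.016 without PBS 1.

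The rest of the family did not share one direction. Of 18 other genes of the Ms4a family and its relatives, 14 were measured. Of these, 7 were lower and 7 higher on average (median difference 0.0034), where 46.5% of all genes were lower. Many of them were dim: Ms4a1, Ms4a2, Ms4a3, Ms4a5, Ms4a13, Ms4a19 and Ms4a20 had group means of 3.51 to 4.55 log2 units. Array medians were 6.77 to 6.82, and whether the dim genes show signal over background was not tested. At an unadjusted p of 0.05, 4 were lower (Ms4a4d, Ms4a19, Tmem176a and Tmem176b) and 0 higher, and none passed an adjusted p of 0.05 in limma. Ms4a1, the CD20 antigen of B cells, differed by 0.20 (SE 0.12, 95% interval -0.073 to 0.47), Ms4a2, the IgE receptor chain of mast cells, by 0.19 (SE 0.093, 95% interval -0.020 to 0.39), and Ms4a8a by 0.018 (SE 0.079, 95% interval -0.16 to 0.20).

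In the gene order of GRCm38.p6 the 6 measured members stand close together. The order runs Ms4a7, Ms4a4a, Ms4a4c, Ms4a4b, Ms4a6c, Ms4a6b, Ms4a4d and Ms4a6d, with other gene models between them. One of these, Gm8369, lies between Ms4a6c and Ms4a6b and differed by -0.25 (SE 0.11, adjusted p = 0.410 in limma), with groups that overlapped. Ms4a4d, which lies between members without being one, had 8.12, 7.72, 7.77 and 7.78 log2 units in hBD-2 mice 1 to 4, against 8.46, 8.52, 8.36 and 8.25 in PBS mice 1 to 4. These groups did not overlap either, and the difference was -0.55 (SE 0.10, adjusted p = 0.0906 in limma). It was among the 91 genes that passed with the intensity trend and robust prior (adjusted p = 0.0269), as Ms4a6b, Ms4a7 and Ms4a4c were. On one side of this stretch Ms4a5 differed by 0.016 (95% interval -0.14 to 0.17), and on the other lay Ms4a2, followed by Ms4a3 (-0.046, 95% interval -0.29 to 0.20). These flanking genes were dim, with group means of 3.51 to 4.55 log2 units against array medians of 6.77 to 6.82. Whether they show signal over background was not tested. Ms4a14, which lies between Ms4a5 and Ms4a7, was not analysed here. No test of position along the chromosome was made.

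**Figure D4:**
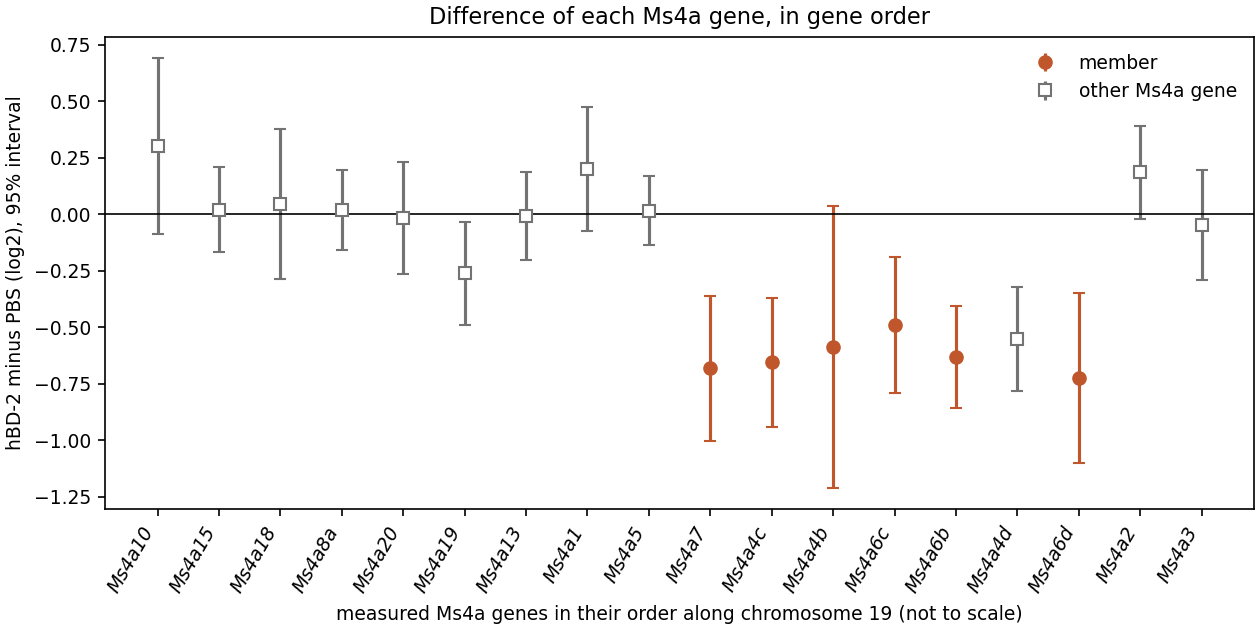
Difference between groups, hBD-2 minus PBS, in log2 units, for each measured Ms4a gene in the order in which the genes lie on chromosome 19, with 95% intervals as bars and members set apart by colour. The 6 measured members and Ms4a4d lie between -0.72 and -0.49, while Ms4a5, Ms4a2 and Ms4a3 beside them have intervals that include 0. Ms4a5, Ms4a2 and Ms4a3 were dim, with group means of 3.51 to 4.55 log2 units.

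Among the known partners, 5 of 6 were measured. Fcer1g, the signalling chain shared by the IgE receptor and activating Fc receptors, had 7.39, 7.44, 7.25 and 7.59 log2 units in hBD-2 mice 1 to 4, against 8.21, 8.48, 8.10 and 8.12 in PBS mice 1 to 4. It fell by 0.81 on the log2 scale (SE 0.10, adjusted p = 0.0467 in limma), the 1 gene of all those named here to pass. With 1 array left out at a time the adjusted p was 0.0453 to 0.176, and under 0.05 only without hBD-2 4, while the difference stayed between -0.86 and -0.72. It was 0.129 with the pair that stood apart left out. Vsig4, the complement receptor that Ms4a6d binds, differed by -0.47 (SE 0.15, 95% interval -0.81 to -0.12) and Trem2, a macrophage lipid receptor, by -0.20 (SE 0.093). Vsig4 was at -0.30 without PBS 1, and Trem2 at -0.12 without PBS 4. Tnfrsf18, which encodes GITR, the receptor with which Ms4a4b associates, differed by -0.18 (SE 0.13, 95% interval -0.47 to 0.10), and by -0.096 without PBS 4. Fcer1a, the IgE-binding chain that pairs with Ms4a2, differed by 0.15. Clec7a was not analysed here.

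The genes with the pattern most like each member over the 8 arrays, ranked by Pearson r among 18459 genes outside the family, were different for each. For Ms4a6b they were Cd4 (r = 0.98), the pan-leukocyte tetraspanin gene Cd53 (0.97) and the oxysterol-binding Osbpl8 (0.97). For Ms4a4b they were Ube2d2a (0.99), Akap13 (0.98) and the amylase gene Amy2a4 (0.98), which has near-identical copies. For Ms4a4c they were Zfp979 (0.99), the collagen chaperone Serpinh1 (0.98) and Tmem165 (0.97).

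The macrophage members had other genes at the top. For Ms4a6c these were the chemokine Cxcl12 (0.99), the scavenger receptor Colec12 (0.98) and Cyp7b1 (0.98). For Ms4a6d they were the protease gene Ctsc (0.99), ceruloplasmin, Cp (0.99), and the ATP-gated channel P2rx7 (0.98). For Ms4a7 they were Igfbp7, Dennd5a and Spin1, each at 0.98. After taking out each group's mean, these r values of the 18 genes were 0.81 to 0.99. The genes were picked for high r on the same 8 arrays, so high values follow in part from the choice. The r values describe 8 arrays and carry no p. A like pattern did not mean a like size of difference. The genes' own differences ran from -0.67 for Serpinh1 (SE 0.094) to -0.083 for Tmem165 (SE 0.063).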

How the data were processed

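Total RNA from whole colon was hybridised to 8 Affymetrix arrays, 1 per mouse, in 2 groups of 4 taken from the sample titles. The authors deposited log2 values for 22203 probe sets, made with RMA in the R package oligo per the submitters' processing notes, with versions not given in the sources used here. RMA corrects background and makes array distributions alike by quantile normalization, so that a shift of all genes would not be visible, and precision is limited by the number of arrays. The platform annotation gave 1 gene for 19572 probe sets, several for 0 and none for 2631. For the 55 genes with several probe sets the one with the highest mean was kept, leaving 19505 genes, all matched to GRCm38.p6.

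Differences, hBD-2 minus PBS, were tested two-sided with limma 3.58.1 (lmFit, eBayes; R 4.3.3), with Benjamini-Hochberg adjustment over all genes and a threshold of 0.05, without a filter on dim probe sets. The labels name no test. A two-sided exact permutation test over mice stands beside it. The fit was also run on simulated data with independent noise for each gene. Such data lack the shared shift of hBD-2 1 and hBD-2 3, so that run checks the code and not the calls made here. Each mouse is 1 replicate, and limma's p-values set a difference against the spread between mice, moderated over all genes. The members, the 12 other gene lists and the naming rule were chosen with earlier results of these data known. The rule named all members, every other family gene and partner measured, the 3 members of lowest p in each list, set defining markers, and the 3 genes most like each member by Pearson r, skipping unnamed gene models. Not every gene it allows is printed. Hoxb13 was among the set markers, and Gm8369 is named outside the rule. Promoters were aligned with Biopython 1.88 and figures drawn with matplotlib 3.10.9. Alternatives tried were limma's trended and robust prior, filters on dim probe sets, other scalings, the mean of a gene's probe sets, weighted arrays, arrays left out, the replicate number as a block and a threshold of 0.1.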

Additional observations from a re-analysis of the deposited data

Results flagged for a closer look

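Of 170 groups of 4 arrays (85 genes), 11 had 1 array far from the other 3 by Dixon's test, which chance gives in about 1 in 20 groups. No Ms4a member was among them. In the family, hBD-2 1 was the highest of its group for Ms4a4d (8.12 log2 units, the next at 7.78), hBD-2 2 the lowest for Ms4a3 (4.32, the next at 4.55) and the highest for Ms4a13 (3.94, the next at 3.68), and PBS 3 the highest for Ms4a20 (4.07, the next at 3.77). Among the other named genes, hBD-2 2 was the highest of its group for the macrophage gene Mrc1 (9.67, the next at 9.33). It was the lowest for Cd53 (8.38, the next at 8.63), which was named for its likeness to Ms4a6b. For the mast cell protease gene Cpa3, hBD-2 2 was the lowest of its group (4.19, the next at 4.42) and PBS 1 the lowest of the other (4.01, the next at 4.41). PBS 1 was the lowest for the T cell gene Cd3e (7.98, the next at 8.36). PBS 2 was the highest for the interferon-induced Bst2 (9.47, the next at 8.86) and the lowest for the mast cell chymase gene Cma1 (3.92, the next at 3.97).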

How the results depend on the processing

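The count of genes passing an adjusted p of 0.05 was 8 and depended on the setting. It was 91 with an intensity trend and robust prior, 68 with array weights, 16 and 47 without the lowest 25% and 50% of probe sets, 4 with quantile normalization repeated, and 81 at a threshold of 0.1. It was 8 with median centring or the mean of probe sets, and 0 to 11 with 1 array left out: 11 without hBD-2 2, 9 without hBD-2 4, and 0 when any other array was omitted (1678 to 2771 genes at an unadjusted p of 0.05). It was 0 in limma when the pair that stood apart was omitted (2503 genes at an unadjusted p of 0.05). With the replicate number as a block it was 0 in limma (2566 genes at an unadjusted p of 0.05). The call of Fcer1g ended under the block (adjusted p = 0.0910), and also with quantile normalization repeated (adjusted p = 0.0539). Over all genes, the deviations of mice with the same number correlated at r of -0.15 to 0.24. The labels name no pairing, and so few values cannot show whether the numbers pair the mice.

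The members lower at an unadjusted p of 0.05 numbered 5, and 4 to 6 under the alternatives, the 4 being all those measured once the lowest 50% of probe sets were left out. All 6 were counted, Ms4a4b included, under the block and when hBD-2 1, hBD-2 3, PBS 1 or the pair was omitted. All members stayed lower in every alternative run. Ms4a6b also passed the adjusted threshold without the lowest 50% of probe sets (adjusted p = 0.0369) and with array weights (adjusted p = 0.0485). With 1 array left out, Ms4a4b ranged from -0.81 (without hBD-2 3) to -0.41 (without hBD-2 2). These values do not show signal over background, and why the counts depend on these settings was not tested.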
